A study of Mus musculus with 8 samples.

Results

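The genes described here are 9 imprinted genes of growth control and noncoding RNA: H19, Dlk1, Meg3, Rian, Cdkn1c, Peg3, Mest, Plagl1 and Grb10. They were named by symbol, and every array probe whose gene symbol is one of them was taken. Of the 9 genes, 8 had a probe, with 20 probes among them, out of 19057 genes with a probe in all; H19 had none in the probe table used and is not analysed here. At a detection p-value under 0.01, 7 of the 9 were detected on at least 1 of the 8 arrays, and 4 of them (Dlk1, Cdkn1c, Peg3 and Grb10) on all 8, where 10738 genes of the whole table were detected somewhere. The largest difference of the group lay between hearts and epicardial cultures, in Mest. By the rule given below, 31.0% of all measured genes differed between a vehicle-treated culture and control hearts. The median difference of the group there was -0.02. In the culture given 3 growth factors Dlk1 was lower than with vehicle on both probes. Mest was undetected in that culture, and its lower call was lost with some alternative settings.

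The study asked how loss of the platelet-derived growth factor (PDGF) receptors from the epicardium, the outer cell layer of the heart, and exposure of epicardial cells to growth factors alter gene expression in the E12.5 mouse embryo. Each of 8 groups was hybridized to 1 Illumina mouse bead array, all from mice of mixed C57 background. The knockout hearts had lost Pdgfra and Pdgfrb in the epicardium, per the labels, through a tissue-specific deletion (the sources used here do not give the Cre driver), and the control hearts are labelled wildtype; 3 hearts without the conotruncal region were pooled for each. The other 6 arrays held epicardial cultures, at least 3 pooled for each, in which cells grew out of the hearts for 3 days before the hearts were removed and the cells were kept for 2 further days. These were a culture from knockout embryos, a control culture (labelled with vehicle treatment, and with the heart as its source), cultures exposed for the last 12 h or 24 h to PDGF-BB (20 ng/ml), which binds both receptors, a culture that received bFGF (25 ng/ml), TGF-β1 (10 ng/ml) and PDGF-BB (20 ng/ml) over the 2 days (the 3-factor culture), and a culture given vehicle over the same 2 days. By their titles the PDGF-BB, 3-factor and vehicle cultures are wild type, while the title of the control culture says only control. Because each group is 1 pooled array, there is no spread between replicates and no test of a difference between 2 arrays.

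Imprinted genes are transcribed mainly or only from the allele of 1 parent, a state set by DNA methylation laid down in the egg or the sperm. Many of them act on the growth of the embryo, those expressed from the father's allele mostly promoting it and those expressed from the mother's allele mostly restraining it, and several fall in embryonic organs as growth slows after birth. The arrays sum both alleles, so they give the amount of RNA and not its parental origin. Among the 9 genes, Dlk1, Mest, Peg3 and Plagl1 are expressed from the paternal allele, and H19, Meg3, Rian, Cdkn1c and, in most mouse tissues, Grb10 from the maternal allele. Dlk1, Meg3 and Rian lie within 209 kb of each other on chromosome 12 (GRCm38.p6), with Dlk1 at chr12:109452485-109463336, Meg3 at chr12:109540996-109571729 and Rian at chr12:109603945-109661716. Both noncoding RNAs of that cluster host small RNAs: the Rian locus holds the hairpins of Mir1188, Mir341 and Mir370, and the Meg3 locus that of Mir770. Mest, at chr6:30733506-30748466, holds Mir335. The remaining measured genes lie on chromosome 7 (Cdkn1c at chr7:143458339-143461059 and Peg3 at chr7:6703892-6730462), chromosome 10 (Plagl1 at chr10:13090832-13131694) and chromosome 11 (Grb10 at chr11:11930499-12037428).

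The start regions of the genes on which the results turn are printed because they differ in their CpG content, the substrate of imprinting methylation. Windows of 300 bases (250 before and 50 after an annotated start, RefSeq, GRCm38.p6) were present for 7 of the 9 genes, 11 windows in all. Mest has an upstream start, at chr6:30733256-30733555, and downstream starts, of which chr6:30737800-30738099 is shown and a further window lies 3 bases on. The windows of Dlk1 (chr12:109452573-109452872) and Rian (chr12:109603695-109603994) are shown beside them, all on the plus strand. Capitals mark the hexamer TGCCGC, bound by the imprint-maintaining zinc-finger protein Zfp57 when methylated, and the GC box GGGCGG, each on either strand; the marked matches do not overlap.
Mest upstream start: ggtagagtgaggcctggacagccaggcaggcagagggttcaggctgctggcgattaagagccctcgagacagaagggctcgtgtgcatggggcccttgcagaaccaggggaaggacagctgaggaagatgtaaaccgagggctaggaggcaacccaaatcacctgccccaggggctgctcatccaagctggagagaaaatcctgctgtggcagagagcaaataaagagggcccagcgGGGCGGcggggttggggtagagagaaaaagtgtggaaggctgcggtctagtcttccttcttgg
Mest downstream start: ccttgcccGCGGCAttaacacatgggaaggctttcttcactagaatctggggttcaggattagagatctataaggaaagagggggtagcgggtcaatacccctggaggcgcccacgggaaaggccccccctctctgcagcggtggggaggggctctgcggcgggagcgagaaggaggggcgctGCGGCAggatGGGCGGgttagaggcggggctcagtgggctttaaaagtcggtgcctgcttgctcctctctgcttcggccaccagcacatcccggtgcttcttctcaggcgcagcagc
Dlk1: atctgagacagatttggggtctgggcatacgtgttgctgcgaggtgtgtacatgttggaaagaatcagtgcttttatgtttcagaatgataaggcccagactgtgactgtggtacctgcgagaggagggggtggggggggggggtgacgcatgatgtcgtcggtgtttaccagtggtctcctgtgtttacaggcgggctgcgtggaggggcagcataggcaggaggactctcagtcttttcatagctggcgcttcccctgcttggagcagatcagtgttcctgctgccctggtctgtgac
Rian: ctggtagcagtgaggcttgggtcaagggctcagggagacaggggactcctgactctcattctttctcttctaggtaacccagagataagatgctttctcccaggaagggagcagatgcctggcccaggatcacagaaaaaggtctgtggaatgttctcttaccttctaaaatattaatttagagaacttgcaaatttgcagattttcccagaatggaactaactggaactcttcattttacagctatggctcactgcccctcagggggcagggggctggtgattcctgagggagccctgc
The downstream Mest window held 17 CpG dinucleotides, 2 hexamers and 1 GC box, whereas the upstream Mest window held 8 CpG and 1 GC box with no hexamer. The Dlk1 window held 9 CpG and the Rian window 0, and neither held the hexamer or the GC box. Over all 32851 windows of this kind the median was 7 CpG, 11.6% held the hexamer and 35.7% the GC box. A TATA box (TATAAA on either strand) was found in none of the 4 windows shown, and in 13.6% of all windows. These matches describe letters only, and which start gave rise to the RNA measured was not analysed here.

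Levels are log2 of the background-corrected, quantile-normalized intensity, and differences are log2 differences of such levels, always between arrays for the same probe. A gene was taken as measured in a comparison where it was detected on at least 1 of the 2 arrays, and as called, that is higher or lower, where the difference was at least 1 and the gene was detected on the brighter array. The words rose and fell are kept for called genes. Between 14557 and 16661 of 45281 probes were detected per array (32.1% to 36.8%), and with 1 array a group the number of arrays limits the precision. The arrays had been processed by the authors in 2 sets of 4: both hearts with the vehicle and 3-factor cultures in one, and the knockout, control, PDGF-BB 12 h and PDGF-BB 24 h cultures in the other. The comparisons of knockout hearts with control hearts, of the vehicle culture with control hearts, of the 3-factor with the vehicle culture, and of the knockout and PDGF-BB cultures with the control culture each stay within a set. Those made with the other untreated culture, that of the 2 untreated cultures, and any order over all 6 cultures or over cultures and hearts cross the sets. Between the 2 untreated cultures the absolute difference had a median of 0.37 and a 90th percentile of 1.02 over all measured genes. Pdgfra, a deleted gene, had a level of 5.80 in knockout hearts and 7.43 in control hearts, and of 10.49 in the knockout culture and 11.61 in the control culture, though the vehicle culture had 10.21. Pdgfrb, the other deleted gene, was dim, with 5.11 without detection in knockout hearts and 5.62 in control hearts, and 5.85 in the knockout culture and 6.12 in the control culture. Whether these probes read the deleted exons was not analysed here. Of 11 cardiomyocyte markers all were detected in both hearts, against 3 to 7 in the cultures, and of 7 macrophage markers all were detected in every culture. The summed intensity of the macrophage markers was 12687 to 74695 in the cultures and 1965 to 2545 in the hearts. Summed intensities are before normalization, and array scales differed: the brightest probe read 27914 in the 3-factor culture and 53266 in the control culture. Of 7 epicardial markers 5 to 7 were detected in the cultures and 5 in the hearts, and Tbx18 was detected only with PDGF-BB at 24 h.

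**Figure D1:**
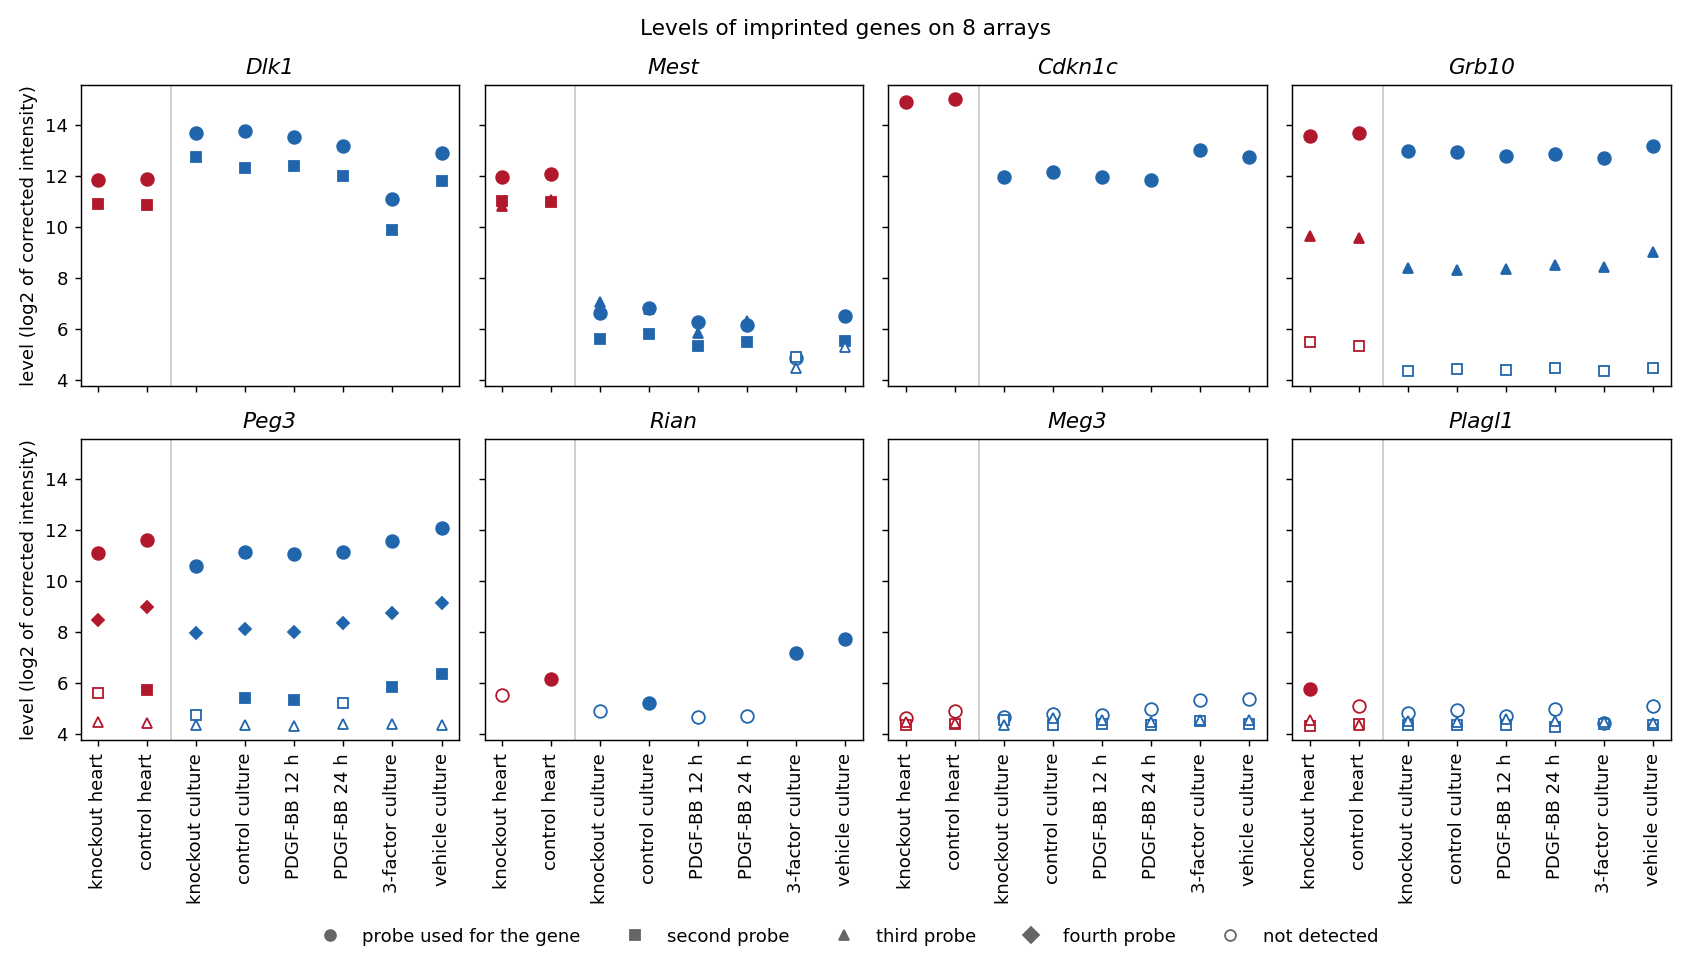
Level (log2 of corrected intensity, y axis) of every probe of the 8 imprinted genes with a probe, on the 8 arrays (x axis); red points are hearts, blue points cultures, filled points are detected at p under 0.01 and open points are not, and each point is 1 pooled array. The 3 Mest probes drop by several log2 units in every culture, Dlk1 is lowest in the 3-factor culture, and Rian stands out in the 3-factor and vehicle cultures.

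Mest, an enzyme of the α/β-hydrolase fold whose loss slows the growth of mouse embryos, showed the widest gap of the group between hearts and cultures. Its brightest probe had a level of 11.97 in knockout hearts and 12.10 in control hearts. In the cultures that probe gave 6.61 in the knockout culture, 6.82 in the control culture, 6.27 with PDGF-BB at 12 h, 6.14 at 24 h, 4.87 without detection in the 3-factor culture and 6.52 in the vehicle culture. Every culture lay below both hearts, with 5.15 between the highest culture and the lower heart. The other 2 Mest probes gave the same picture, with 11.02 and 10.85 in knockout hearts, 10.97 and 11.05 in control hearts, and no culture above 5.79 for the first of them or 7.05 for the second. In the vehicle culture Mest fell by 5.58 relative to control hearts, a ratio of 47.9 between hearts and culture, which placed it 53rd from the lowest of 9661 measured genes. The second probe differed by -5.46, and the third was not detected in the vehicle culture, at 5.28 against 11.05 in control hearts. Copg2, which lies beside Mest in the genome, differed by -0.85 and was not called.

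Cdkn1c, an inhibitor of cyclin-dependent kinases that restrains cell division and growth, was the second gene of the group that was lower in all cultures. Its single probe had a level of 14.92 in knockout hearts and 15.05 in control hearts. The cultures had 11.98 in the knockout, 12.16 in the control, 11.99 with PDGF-BB at 12 h, 11.86 at 24 h, 13.05 with the 3 factors and 12.76 with vehicle. The highest culture was 1.87 below the lower heart. In the vehicle culture Cdkn1c fell by 2.28 relative to control hearts, a ratio of 4.87. Before normalization the probe read 23039 in knockout hearts and 24566 in control hearts. The brightest probes of those arrays read 26136 and 25863, so both heart levels lie near the brightest readings of their arrays. In the vehicle culture it read 6095, which is 22.6% of that array's brightest probe. Its non-imprinted paralogue Cdkn1a, a kinase inhibitor known as a target of p53, rose by 3.58 in the vehicle culture relative to control hearts, with 3.70 and 3.96 for its other probes. The paralogues of Grb10 that were called, Grb7 and Grb14, were lower in that comparison, by at least 1.36-fold and at least 1.17-fold.

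Dlk1, a transmembrane protein with EGF-like repeats that keeps precursor cells undifferentiated, was the only protein-coding gene of the group called higher in culture than in hearts. Its brighter probe had 11.87 in knockout hearts and 11.89 in control hearts, and 13.71 in the knockout culture, 13.76 in the control culture, 13.54 with PDGF-BB at 12 h, 13.20 at 24 h, 11.12 with the 3 factors and 12.92 with vehicle. The second probe followed the same order except among the 3 brightest cultures and between the hearts, with 12.74 in the knockout culture and 12.31 in the control culture, and 9.90 in the 3-factor culture and 11.81 in the vehicle culture. Thus 5 cultures lay above both hearts on both probes and the 3-factor culture below both. In the vehicle culture Dlk1 rose by 1.03 relative to control hearts on the brighter probe and differed by 0.93 on the second, which sits at the limit of the call, and the difference was 0.99 with median centring and 0.98 with the mean of its probes. With the control culture in place of the vehicle culture the difference was 1.87.

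Rian, a noncoding RNA that carries small nucleolar RNAs and microRNAs, was dim throughout. Its single probe was detected on 4 arrays only, with a level of 6.13 in control hearts, 5.21 in the control culture, 7.18 in the 3-factor culture and 7.71 in the vehicle culture. The levels without detection were 5.50 in knockout hearts, 4.91 in the knockout culture, 4.64 with PDGF-BB at 12 h and 4.71 at 24 h. Rian rose by 1.58 in the vehicle culture relative to control hearts, while the control culture differed from those hearts by -0.93, so the 2 untreated cultures lie on opposite sides of the hearts.

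Grb10, an adaptor protein that binds the insulin and IGF1 receptors and limits their signal, was bright on every array. It had 13.57 in knockout hearts and 13.69 in control hearts, and cultures between 12.70 (3-factor) and 13.18 (vehicle), with 12.94 in the control culture, a knockout culture 0.06 above it, 12.79 with PDGF-BB at 12 h and 12.86 at 24 h. All 6 cultures lay below both hearts by at least 0.39, and by at least 0.55 on the second detected probe, but the difference of the vehicle culture from control hearts was -0.51 and not called. Peg3, a zinc-finger protein that takes part in cell death and maternal behaviour in mice, overlapped between cultures and hearts. Its brightest probe had 11.10 in knockout hearts and 11.61 in control hearts, and 10.60 in the knockout culture, 11.13 in the control culture, 11.07 with PDGF-BB at 12 h, 11.14 at 24 h, 11.56 with the 3 factors and 12.08 with vehicle. The vehicle culture differed from control hearts by 0.47.

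Plagl1, a zinc-finger transcription factor that regulates other imprinted genes, was detected in knockout hearts alone, at 5.75, and only by 1 of its 3 probes; it was 5.10 without detection in control hearts and 4.41 to 5.07 without detection in the cultures. Meg3 was not detected by any of its 3 probes on any array, and its brightest probe lay between 4.60 and 5.36. These levels are those of the background and carry no order.

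Of the 6 genes of the group measured in the comparison of the vehicle culture with control hearts, 2 were called higher and 2 lower, where 31.0% of all measured genes were called. The median difference of the 6 was -0.02, and that of all 9661 genes 0.04. Likewise 28.0% of the 10722 genes compared had all 6 cultures below both hearts. Of the 7 genes of the group detected on at least 1 array, Mest, Cdkn1c, Grb10 and Plagl1 showed that arrangement. For Plagl1 the gap was 0.03, at levels of the background. With the control culture instead, 3 of 6 were called, Dlk1 higher (1.87) and Cdkn1c (-2.88) and Mest (-5.28) lower, where 36.5% of all genes were called. Markers of other cell types moved with these differences. In the vehicle culture 10 of 11 cardiomyocyte markers, 6 of 6 measured endothelial and 6 of 6 erythroid markers were lower than in control hearts, with medians of -7.21, -4.76 and -4.47. The summed cardiomyocyte intensity was 2963 to 6560 in the cultures and 97532 to 101805 in the hearts, with Myh7, Tnni3, Ryr2 and Pln undetected in every culture. Macrophage markers were higher in 6 of 7 cases (median 3.08), fibroblast markers in 5 of 7 (2.79) and epicardial markers in 5 of 6 (2.13). Smooth muscle markers were higher in 3 of 5 cases (2.28). Of 7 cell cycle markers and 2 sex-linked genes 1 each was lower. In such mixed samples fewer cells of a type and less RNA per cell cannot be told apart. The part of cell composition and of the sex of the pooled embryos in these differences was not tested.

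The wider list of 48 imprinted genes, of which 44 had a probe and 26 were measured in this comparison, gave 9 called genes, 3 higher and 6 lower in the vehicle culture. Whether each listed gene is imprinted in hearts or epicardial cells was not analysed here. Over the 26 the median difference was -0.47, and 18 lay below 0. Igf2r, the receptor that removes the growth factor Igf2 from the cell surface, fell by 2.74, with levels of 10.01 in the vehicle culture and 12.75 in control hearts, and its second probe differed by -3.03. Igf2 itself, a paternally expressed growth factor, was among the brightest genes, with 14.16 in the vehicle culture and 14.73 in control hearts, a difference of -0.57 that was not called. Before normalization its probe read 21522 in control hearts, where the brightest probe read 25863, so it too lies toward the brightest readings of that array. Ppp1r9a, an actin-binding scaffold of protein phosphatase, fell by 2.07, the docking protein Gab1 fell by 1.67, and Commd1, a protein of copper and endosomal transport, fell by 1.27. Higher in the vehicle culture were Dcn, the matrix proteoglycan decorin (1.69), H13, a signal peptide peptidase (1.41), and Zim1, a zinc-finger gene near Peg3, at least 1.40-fold. Usp29, also a neighbour of Peg3, was at least 1.17-fold lower, and Kcnq1ot1, the noncoding RNA of the Cdkn1c cluster, fell by 1.12. Of the H13 probes 1 other differed by 1.44, whereas the remaining detected ones lay between -0.14 and 0.62. Of 23 wider-list genes measured against control hearts in both untreated cultures, 5 were lower in both (21.7%, against 12.0% of all 9498 genes) and 2 higher in both (8.7%, against 13.2%). Those lower in both were Igf2r, Ppp1r9a, Gab1, Commd1 and Kcnq1ot1, and those higher in both were H13 and Dcn. The second Commd1 probe, detected on all 8 arrays, differed by -0.71 in the vehicle culture and by 0.20 in the control culture, each against control hearts.

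**Figure D2:**
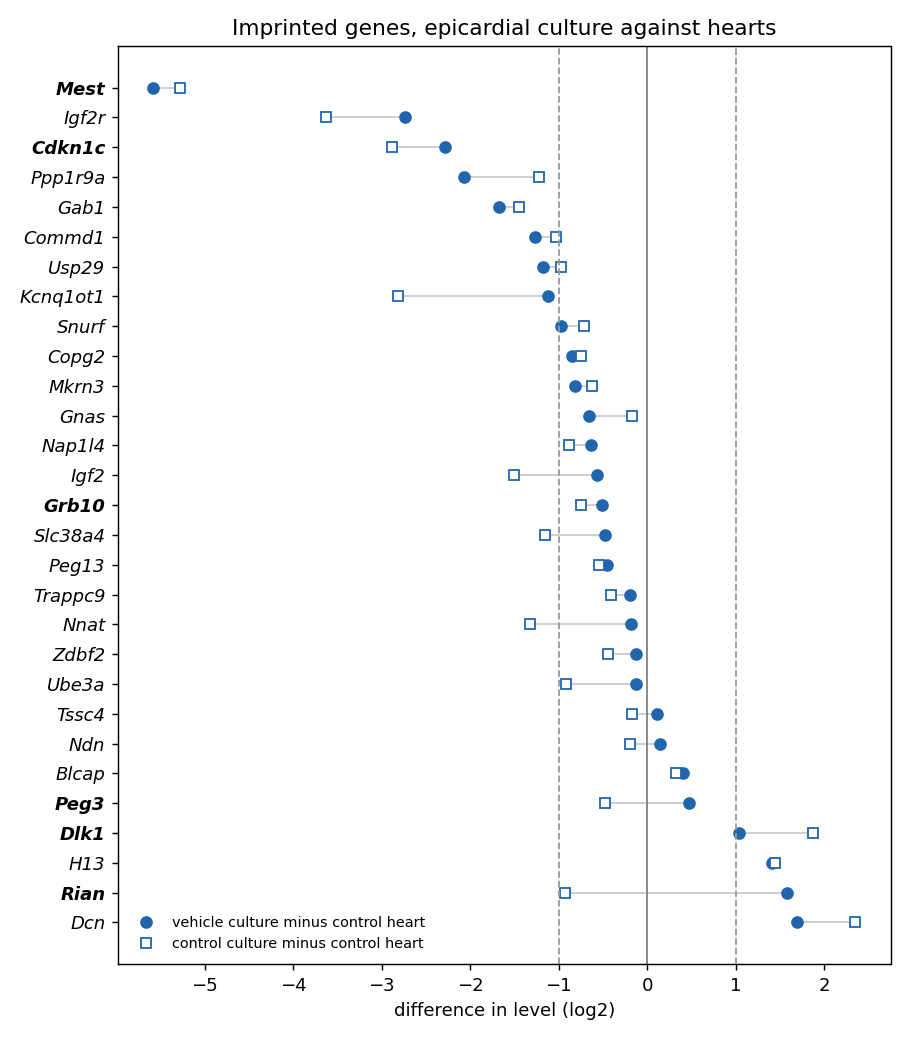
Difference in level (log2, x axis) of imprinted genes measured in both untreated cultures, each culture minus control hearts: filled circles for the vehicle culture, open squares for the control culture, 1 pooled array each; bold names belong to the group of 9 and dashed lines mark a difference of 1. Mest lies at -5.58 and -5.28, Igf2r and Cdkn1c follow, and Rian and Kcnq1ot1 are among those whose 2 cultures stand far apart.

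The 3-factor culture asks what PDGF-BB, TGF-β1 and bFGF together do to epicardial cells over 2 days, with the vehicle culture as its reference. Dlk1 and Mest fell and none of the group rose. Dlk1 had 11.12 in the 3-factor culture and 12.92 in the vehicle culture, a fall by 1.81 (a ratio of 3.50 of vehicle to 3-factor culture), and 9.90 and 11.81 on its second probe (-1.91). It ranked 105th from the lowest of 9183 measured genes. Mest was not detected in the 3-factor culture by any of its 3 probes, with 4.87 on the brightest probe, against 6.52 in the vehicle culture, which makes it at least 1.93-fold lower. The call was lost with an offset of 50 in the background correction (-0.99) and with the authors' processed values (-0.87). Its second probe gave 4.88 without detection in the 3-factor culture and 5.51 in the vehicle culture (-0.63), and the third probe was detected in neither.

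The other 4 measured genes were not called. Cdkn1c had 13.05 with the 3 factors and 12.76 with vehicle, a difference of 0.29. Peg3 differed by -0.51, Grb10 by -0.48 and Rian by -0.53. Together 2 of 6 measured genes were lower, where 10.3% of all genes were called and 5.05% were called lower, and the median of the 6 was -0.52 beside -0.00 for all genes. Among the wider imprinted list 1 of 25 was called, Dcn, which fell by 3.53 (9.37 with the 3 factors, 12.90 with vehicle). Igf2 differed by -0.75 and Igf2r by 0.08. Cdkn1a rose by 1.42, with 1.03 and 1.22 for its other probes.

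Against the control culture, which lies in the other array set, Dlk1 was lower by more (-2.64) and Mest too (-1.95, at least 2.38-fold lower), while Rian was higher (1.98), in the opposite direction to its difference from the vehicle culture. These were 3 called genes of 6, where 16.8% of all genes were called. A limma fit pooled the vehicle and control cultures as 2 samples of 1 group. It left 1 residual degree of freedom and assumed that the lone array varies as those 2 cultures do. They lie in different array sets, so the spread between them includes any difference between the sets. Dlk1 then differed by -2.22 (SE 0.49, limma adjusted p = 0.276) and Mest by -1.80 (SE 0.41, limma adjusted p = 0.289). No gene of 10250 passed limma's adjusted threshold of 0.05 (0 genes), and 747, Dlk1 and Mest among them, were under 0.05 before adjustment. Marker lists differed between the 3-factor and vehicle cultures as well. In the 3-factor culture 4 of 6 epicardial markers were lower (summed intensity 4856, against 14944 with vehicle) and 3 of 7 cell cycle markers were lower (7501 against 14784). All 4 measured erythroid markers were lower too, with a sum of 294 and none detected, against 12999 with vehicle. Macrophage markers were higher in 4 of 7 cases (31810 against 12687). Of 7 cardiomyocyte markers 4 were higher and 2 lower, of 7 fibroblast markers 1 was higher and 3 lower, and 2 of 5 smooth muscle markers were lower. Against the control culture 0 of 7 macrophage markers were higher and 2 lower, with a median difference of 0.13. Their sums before normalization were 31810 in the 3-factor culture and 52133 in the control culture, which lie in different array sets. Of 6 epicardial markers 4 were again lower and 1 was higher. Of 3 measured sex-linked genes 1 was lower than with vehicle, and 3 of 4 were lower than in the control culture. The part of cell composition and of the sex of the pooled embryos in the lower Dlk1 and Mest was not tested.

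**Figure D3:**
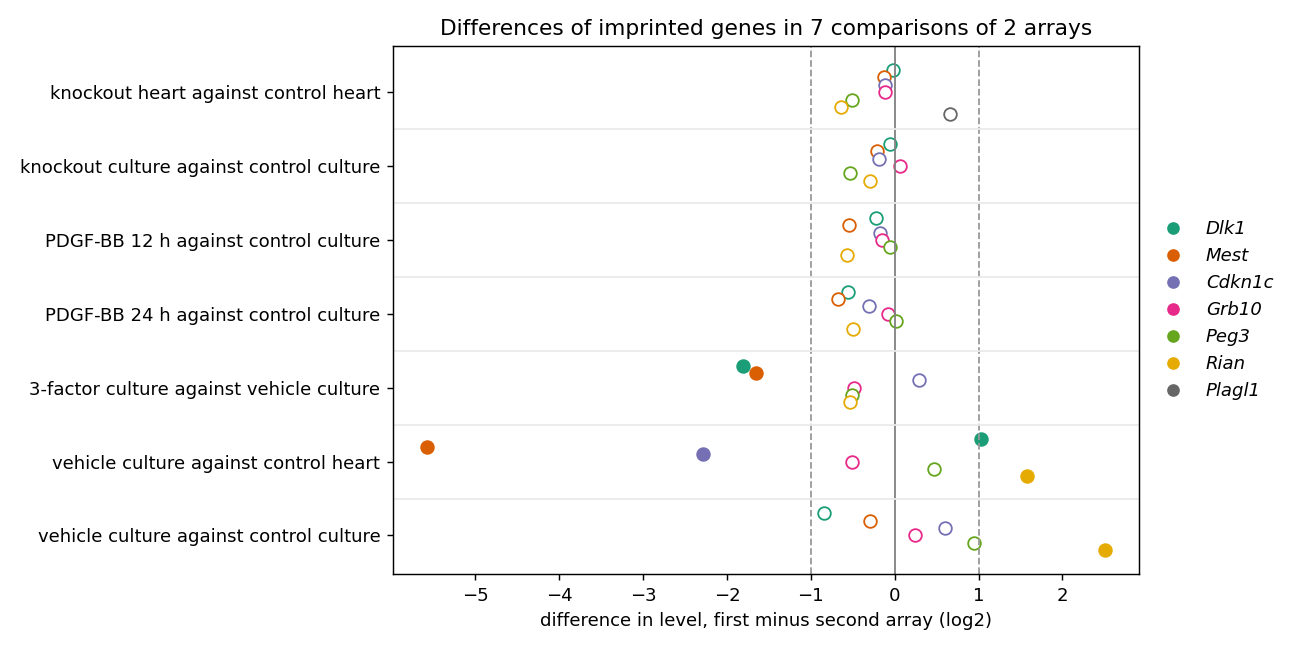
Difference in level (log2, x axis), first minus second array as named on the y axis, of each measured gene of the group in 7 comparisons of 1 pooled array with 1; filled points are called, open points are not, and dashed lines mark a difference of 1. Called points appear in the 3-factor comparison (Dlk1 and Mest), between the vehicle culture and control hearts (4 genes) and between the untreated cultures (Rian).

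PDGF-BB alone, given for 12 h or 24 h, was set against the control culture of the same array set. None of 6 measured genes was called at either time, where 0.558% of all genes were called at 12 h and 1.23% at 24 h. Dlk1 gave 13.76 in the control culture, 13.54 at 12 h and 13.20 at 24 h, differences of -0.22 and -0.56, with 0.10 and -0.30 for its second probe. Mest gave 6.82, 6.27 and 6.14 in that order, differences of -0.55 and -0.68, and all 3 of its probes were below the control culture at both times (-0.46 and -0.94 for the others at 12 h, -0.30 and -0.50 at 24 h). Differences of Cdkn1c were -0.17 at 12 h and -0.31 at 24 h, those of Grb10 -0.15 and -0.08, and those of Peg3 -0.06 and 0.01. Rian was detected at neither time. The median over the 6 was -0.20 at 12 h and -0.40 at 24 h, beside -0.01 and -0.02 for all genes; the 2 times share the control array. None of the 21 measured genes of the wider imprinted list was called at either time, Igf2 differing by 0.26 and 0.30 and Igf2r by 0.31 and 0.46. At 24 h 3 of 4 erythroid, 1 of 5 smooth muscle and 1 of 7 epicardial markers were higher than in the control culture. Lower were 2 of 3 endothelial, 2 of 7 cardiomyocyte and 1 of 7 fibroblast markers and 1 of 4 sex-linked genes, and Xist was not detected. At 12 h 2 of 7 cardiomyocyte markers were higher and 2 lower. Of 7 fibroblast markers and 4 sex-linked genes 1 each was lower. The part of cell composition and sex was not tested. The limma fit with the untreated cultures pooled called 0 genes after adjustment at either time, and before adjustment 25 genes at 12 h and 19 at 24 h were under 0.05. Against the vehicle culture, in the other set, Dlk1 differed by 0.62 at 12 h and 0.27 at 24 h, opposite in sign, and Rian was lower by at least 5.52-fold at 12 h and at least 5.39-fold at 24 h. With Peg3 (-1.01) at 12 h, 2 of 6 genes were then called at 12 h and 1 at 24 h, where 6.86% and 5.81% of all genes were, so these comparisons depend on which untreated culture is used.

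In the receptor knockout none of the group was called, either in whole hearts (0 of 7 measured, where 0.662% of all genes were called) or in culture (0 of 6, where 4.17% were). Peg3 had the largest difference among genes detected on both arrays: -0.51 between knockout and control hearts, with -0.51 and -0.11 for its other probes detected on at least 1 of the arrays, and -0.53 between the knockout and control cultures, with -0.15 and -0.65 for the others. In hearts it ranked 366th from the lowest of 8915 genes. Dlk1 differed by -0.02 in hearts and -0.05 in culture, Mest by -0.13 and -0.21, Cdkn1c by -0.12 and -0.19, and Grb10 by -0.12 and 0.06. Rian, not detected on either knockout array, differed by -0.64 and -0.30. Plagl1 was measured in hearts only, with 0.66. The medians were -0.12 in hearts and -0.20 in culture, beside -0.00 and 0.01 for all genes.

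Of the wider imprinted list 0 of 24 genes were called in knockout hearts and 1 of 21 in the knockout culture. That gene was Igf2, which fell by 1.16 in culture, with 12.07 in the knockout culture and 13.23 in the control culture, a ratio of 2.23 of control to knockout. It ranked 144th from the lowest of 9762 genes. Every other array lay above the knockout culture for Igf2, with 14.76 in knockout hearts, 14.73 in control hearts, 13.49 after 12 h of PDGF-BB, 13.53 after 24 h, 13.41 with the 3 factors and 14.16 with vehicle. Igf2r was also lowest in the knockout culture on the brighter probe, at 8.49, against 9.12 in the control culture (-0.64), whereas its second probe differed by 0.08. Set against the pooled untreated cultures in limma, Igf2 differed by -1.62 (SE 0.51, limma adjusted p = 1.0). That fit called 0 of 10250 genes after adjustment, and 384 were under 0.05 before it. Against the vehicle culture Igf2 was lower by more (-2.09), and Peg3 (-1.48) and Rian (at least 5.49-fold) were called lower, 2 of 6 measured genes of the group where 14.7% of all genes were called.

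Marker lists differed between the knockout and control arrays, with 1 pooled array on each side. In the knockout culture 5 of 7 measured cardiomyocyte markers and 3 of 4 erythroid markers were lower than in the control culture, with summed intensities of 5242 against 6242 and of 394 against 1465, and 8 of 11 cardiomyocyte markers were undetected there. Macrophage markers were higher in 4 of 7 cases (74695 against 52133), and 0 of 8 cell cycle markers were called with a median of -0.65. Fibroblast markers were lower in 3 of 7 cases, among them the deleted gene Pdgfra (10.49 against 11.61). Of 4 smooth muscle markers 1 was lower, and of 6 epicardial markers 1 was higher. In knockout hearts 2 of 6 fibroblast markers were lower (1638 against 2583), among them again the deleted gene Pdgfra (5.80 against 7.43). In culture 2 of 4 sex-linked genes were lower and 1 higher in the knockout, where Eif2s3y, Kdm5d and Uty were not detected, against all 4 detected in the control culture. Xist was not detected in knockout hearts, whereas Eif2s3y, a Y-linked gene, was not detected in control hearts. The part of cell composition and of the sex of the pooled embryos in these differences was not tested.

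The vehicle and control cultures, neither given a growth factor, were also compared, and of the group Rian was called. Rian rose by 2.51 in the vehicle culture (7.71, against 5.21 in the control culture) and was the 9th highest of 9757 measured genes. It was the 1 called gene of 6 measured, where 10.6% of all genes were called and 3.34% were called higher. Peg3 differed by 0.95 (12.08 with vehicle, 11.13 in the control culture), with 0.94 and 1.03 for its other detected probes. Cdkn1c differed by 0.60, Grb10 by 0.24, Mest by -0.30 and Dlk1 by -0.84. Among the wider imprinted list 4 of 25 were called, all higher in the vehicle culture. They were Kcnq1ot1 (at least 2.75-fold), Zim1 (at least 1.73-fold), Phlda2, a placental growth restrainer of the Cdkn1c cluster (at least 1.87-fold), and Nnat, a membrane proteolipid (1.16). Cdkn1b, a paralogue of Cdkn1c, was at least 2.00-fold higher.

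Some of these genes were split by the authors' array sets. Rian, Cdkn1c and Peg3 were higher in both the 3-factor and the vehicle culture than in all 4 cultures of the other set, 3 of 6 measured genes, where 21.1% of all genes showed that arrangement, and Dlk1 was lower in both, where 20.0% did. Of the wider list 10 of 26 were higher and 4 lower in that way. For Rian the 3-factor and vehicle cultures had 7.18 and 7.71 and the other 4 no more than 5.21. For Kcnq1ot1 they had 6.43 and 6.63, and the other 4 no more than 5.19, with hearts at 6.91 (knockout) and 7.75 (control). Each untreated culture lies in its own set, so set and culture cannot be told apart. Of 5 measured erythroid markers 4 were also higher in the vehicle culture (summed intensity 12999, against 1465 in the control culture), though the 3-factor culture of the same set had 294. Further markers differed between the 2 cultures. In the vehicle culture 5 of 7 cardiomyocyte markers were lower and 1 higher, and 3 of 5 smooth muscle markers were higher. Lower were 2 of 7 macrophage, 2 of 7 fibroblast and 1 of 3 endothelial markers. Of 6 epicardial markers 1 was higher and 1 lower. Of 4 sex-linked genes 2 were lower in the vehicle culture, where Kdm5d and Uty were not detected. The part of cell composition and sex in the differences was not tested.

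Some genes outside the group had nearly the same profile over the 8 arrays. Among genes detected on all 8 arrays with a range of at least 1, those with the highest Pearson r were Ccdc80 (0.988), Mylk (0.987) and Dcn (0.986) for Dlk1, and Smim26 (0.995), Bcorl1 (0.993) and Gpx3 (0.993) for Cdkn1c. For Grb10 they were Phka2 (0.990), Bex4 (0.989) and Bend3 (0.983), and for Peg3 they were lower, with Hs6st1 (0.933), Ddx52 (0.910) and Taf15 (0.909). The genes are named from the highest r down, out of 3888 genes compared, or 3889 for Grb10. RIKEN, clone and predicted genes were left out of this ranking. For Cdkn1c and Grb10 the 2 hearts stand apart from the 6 cultures, so that 1 contrast carries much of the likeness; these values are a description of 8 arrays. Dcn shared with Dlk1 its lowest level in the 3-factor culture (9.37 for Dcn), below both hearts (10.94 in knockout and 11.21 in control hearts).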

How the data were processed

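Per the file headers, the authors deposited for each of 45281 probes its intensity before normalization and its detection p-value; the submitters' processing notes name BeadStudio 3.3. The authors' deposited processed values, an intensity identical in distribution within each of 2 sets of 4 arrays, served as an alternative on a log2 scale; the sources used here do not say how they were made.

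Intensities were corrected with limma 3.58.1 in R 4.3.3 (neqc, background from detection p-values, offset 16, quantile normalization over 8 arrays) to log2 levels. A single symbol was listed for 34885 probes, several for 18, and for 10378 none was listed. A gene took its probe with the highest mean level. A fold bound, given where no probe of a gene was detected on the dimmer array, is the brighter level over the lowest detected level there, or over its own level there if higher. The limma fits used genes detected in any culture, with Benjamini-Hochberg adjustment. Promoter windows and loci are RefSeq's (GRCm38.p6), whose table was matched by symbol.

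Groups followed the labels. The genes and lists were chosen with earlier results of these data known. Named are all 9 genes, Igf2 and Igf2r, up to 4 called genes per direction of the wider imprinted list, called paralogues of 7 listed, the 3 most alike genes for each gene detected on all arrays, and Pdgfra and Pdgfrb. Copg2, and Kcnq1ot1 and Usp29 against control hearts, were named after their values were seen. Alternatives were no background correction, offset 50, median centring, the authors' values, detection p under 0.05, the mean of detected probes, the other untreated culture and limma. The method was also run on simulated data, with differences planted only in bright genes. That run does not cover dim levels such as those of Rian, or of Mest in culture. Python 3.11.15 with pandas 2.3.3, numpy 2.4.6 and matplotlib 3.10.9 made summaries and figures.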

Additional observations from a re-analysis of the deposited data

Results flagged for a closer look

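Igf2 differed by -1.16 between the knockout and control cultures and by 0.03 between the knockout and control hearts, a lower level in the knockout in culture beside a heart value near 0 that was not called. Whether the effect differs between cultures and hearts was not tested. In the hearts the Igf2 probe read 21685 (knockout) and 21522 (control) before normalization. The brightest probes of those arrays read 26136 and 25863, and that of the control culture 53266. Whether the heart readings met a ceiling was not tested.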

How the results depend on the processing

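Of 282 differences of single genes under alternatives, 271 kept their direction where called and their side of the rule, 4 lost the call, 5 gained it and 2 reversed. The reversals came with the other untreated culture: Rian at 1.98 for the 3-factor culture and at -0.93 against control hearts. That change also gave 2 called genes for the knockout culture, 2 for PDGF-BB at 12 h and 1 at 24 h, in place of 0; the cause was not tested. For the 3-factor culture the count of 2 became 1 with an offset of 50 (Mest -0.99), 1 with the authors' values (Mest -0.87) and 0 with limma. Dlk1 against control hearts lost its call at 0.99 with median centring and 0.98 with the mean of probes. The authors' values were not run across their 2 sets. No paired analysis was possible because each group has 1 array.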
